A study of Mus musculus with 3 samples.

Results

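The inducible HSP70 genes Hspa1a and Hspa1b, the constitutive HSP70 gene Hspa8, the HSP110 gene Hsph1, the HSP90 genes Hsp90aa1 and Hsp90ab1, the J-domain gene Dnajb1, the small heat shock protein gene Hspb1 and the mitochondrial chaperonin genes Hspd1 and Hspe1 were described here in restimulated mouse macrophages. These 10 genes were matched by symbol to 1 identifier each, of 21938 protein-coding genes of the nuclear genome and 55450 annotated genes in the tables. Hspa1a and Hspa1b were also summed, because their transcripts are 99.1% identical over 2200 aligned bases. The cells were macrophages grown out of the bone marrow of C57BL/6J mice, and the labels record neither age nor sex. They received Lipid A, the moiety of lipopolysaccharide that Toll-like receptor 4 recognises, at 100 ng/ml for 12 hours, had it washed out for 12 hours, and received 100 ng/ml again for 25 minutes. RNA of the cytosolic fraction (1 µg) was sequenced after ribosomal RNA depletion. All 3 libraries (replicates 1, 2 and 3) form a single group. They carry separate biosample entries but the same donor entry, so the spread given here is that between these samples and may be technical. There were no untreated or heat-shocked cells to compare with, so no change upon Lipid A could be tested, and an exact sign-flip test over 3 libraries could not give a p below 0.25.

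Many heat shock proteins are chaperones that bind unfolded proteins and release them in cycles driven by ATP. HSP70 works with J-domain proteins, which deliver clients and stimulate its ATPase, and with nucleotide exchange factors such as HSP110, and passes some clients on to HSP90. HSP60 and HSP10, the products of Hspd1 and Hspe1, form a folding chamber in the mitochondrial matrix. Under heat or other proteotoxic stress, heat shock factor 1 binds heat shock elements, which are inverted repeats of nGAAn units, and raises transcription of many of these genes. In macrophages HSP90 and HSP70 clients include kinases and receptors of innate signalling.

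The heat shock element was looked for in the promoter windows of RefSeq on build GRCm38.p6, which run from 250 bases before to 50 bases after each annotated start. Of the 10 genes, 7 had a window, and Hspa8, Hsp90aa1 and Hsp90ab1 had none in the table. An element of 2 units (TTCNNGAA or GAANNTTC, both orientations) was present in 7 of the 10 windows of these 7 genes (6 genes), against 15.1% of 32851 windows. An element of 3 units, in which a further TTC or GAA follows after 2 free bases and which therefore contains 2-unit elements, was present in 4 of the 10 windows (Hspd1, Hspe1 and both of Hsph1), against 0.603% of windows. These are not separate hits, since Hspd1 and Hspe1 share 1 stretch, the windows of Hsph1 overlap and Hspa1a and Hspa1b are near copies. All 10 windows held a GC box (GGGCGG on either strand, 35.7% of all windows) and 6 held CCAAT on either strand (37.4%), whereas TATAAA was found in 0 (13.6%). Dnajb1 had 2 windows, and neither contained these letters of the heat shock element. These are matches of letters and say nothing of binding in these cells. The 250 bases upstream of Hspa1a (chr17:34972157-34972406, minus strand) and of Hspa1b (chr17:34959239-34959488, minus strand) are printed because these genes stood apart together in the libraries, with the 2-unit element in capitals.
Hspa1a: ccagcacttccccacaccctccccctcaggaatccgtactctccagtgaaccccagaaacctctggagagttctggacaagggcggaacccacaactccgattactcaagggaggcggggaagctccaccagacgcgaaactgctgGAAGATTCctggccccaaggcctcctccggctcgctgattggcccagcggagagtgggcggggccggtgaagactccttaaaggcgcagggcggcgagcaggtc
Hspa1b: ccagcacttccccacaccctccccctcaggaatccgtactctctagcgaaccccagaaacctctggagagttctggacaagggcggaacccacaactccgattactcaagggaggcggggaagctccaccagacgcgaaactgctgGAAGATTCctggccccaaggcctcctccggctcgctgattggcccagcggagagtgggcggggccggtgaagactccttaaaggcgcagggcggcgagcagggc

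Over these 250 bases the sequences differed at 3 positions, counted from 1 at the 5′ end with the base of Hspa1a first: C44T, T47C and T249G. The element lay 104 to 97 bases before the start in both genes, as did a CCAAT box on the opposite strand at 67 to 63 and GC boxes at 170, 49 and 16 bases before it. The short windows below show 1 stretch with an element for each of the other genes, in capitals, for comparison with that of the inducible pair. Hspd1 and Hspe1 are transcribed away from each other, and 1 stretch (chr1:55088053-55088082) carries the element for both promoter windows, read here on the plus strand of Hspe1. Hsph1 has a 2-unit element before the RefSeq starts of its windows (chr5:149636346-149636375, minus strand) and the 3-unit element just after them (chr5:149636277-149636306). The stretch before those starts overlaps 2 annotated Hsph1 exons, and that of Hspd1 and Hspe1 overlaps 1 Hspd1 exon. The Hspb1 element nearest its start is at chr5:135887816-135887845, plus strand.
Hspd1 and Hspe1: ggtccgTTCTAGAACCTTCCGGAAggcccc
Hsph1, before the start: gaatctTTCTCGAAggctcgagaagaagga
Hsph1, after the start: tgcagaTTCTGGAAAGTTCtcctcagtagg
Hspb1: ggggcaGAACCTTCctggccccgcctgccc

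The 3 libraries differed in depth and in nuclear RNA, which bears on the values below. Total expected counts were 55517261, 21311556 and 45635014 in replicates 1, 2 and 3. Macrophage markers were high in every library (12 of 12 at or above 1 TPM, led by the lysozyme gene Lyz2 and the cathepsin gene Ctsd). Over 6 lists of other cell types, 4 of 40 markers reached 1 TPM in every library, and their sums were 18.3, 25.5 and 16.4 protein-coding CPM (defined below). Nuclear noncoding RNAs, led by Rn7sk and Malat1, were highest in replicate 1, with summed values of 27732, 17453 and 12206 protein-coding CPM. Most of each sum was Rn7sk (17581, 13714 and 10584), and Malat1 differed more (8331, 3481 and 1444). Over the 4 genes of this list at or above 1 TPM in every library, each library was also set against the mean of the others. The median log2 ratios were 2.05, -0.92 and -1.97, a larger difference than the sums show. Protein-coding genes held 29.6%, 40.4% and 34.8% of TPM, so TPM of every gene is shifted between libraries. Levels of different genes are therefore compared in TPM, an abundance per transcript length, within a library. Libraries are compared in protein-coding CPM, the expected counts scaled so that those of nuclear protein-coding genes sum to 1000000.

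Transcripts of Hspa8, the HSP90 genes and the mitochondrial chaperonin were abundant, and those of Hspa1a, Hspa1b, Dnajb1 and Hspb1 were below the median of expressed genes in mean TPM. At least 1 TPM in every library was reached by 9 of the 10 genes, against 42.3% of nuclear protein-coding genes, and these 9269 genes are called expressed below. The exception was Hspb1. The median over the 10 genes was 28.0, 33.5 and 25.5 TPM in replicates 1, 2 and 3, where the median of expressed genes was 8.79, 11.6 and 9.37 TPM. Together the 10 genes held 0.389%, 0.374% and 0.341% of protein-coding counts, and Hspa8 alone held 56.3%, 57.4% and 58.6% of those. By mean TPM the order was Hspa8, Hsp90ab1, Hsp90aa1, Hspe1, Hspd1, Hsph1, Dnajb1, Hspa1a, Hspa1b and Hspb1. Neighbours in this order were called apart where their log2 ratio had 1 sign in all 3 libraries and a mean above its SD. By that rule Hsp90aa1 and Hspe1 were not apart (log2 ratio 0.08 ± 0.25, SD, n = 3), nor were Dnajb1 and Hspa1a (0.85 ± 1.40). Parts of this order rest on noncoding transcripts. Over protein-coding transcripts only, an alternative chosen after seeing the data, Hspe1 had 63.22, 88.75 and 58.35 TPM in replicates 1, 2 and 3. Hsp90aa1 then had 60.59, 79.95 and 47.6 TPM, less than Hspe1 in every library. Hsph1 (5.96 TPM) was then below Dnajb1 (7.02 TPM) in replicate 3, so these genes were not apart either.

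**Figure D1:**
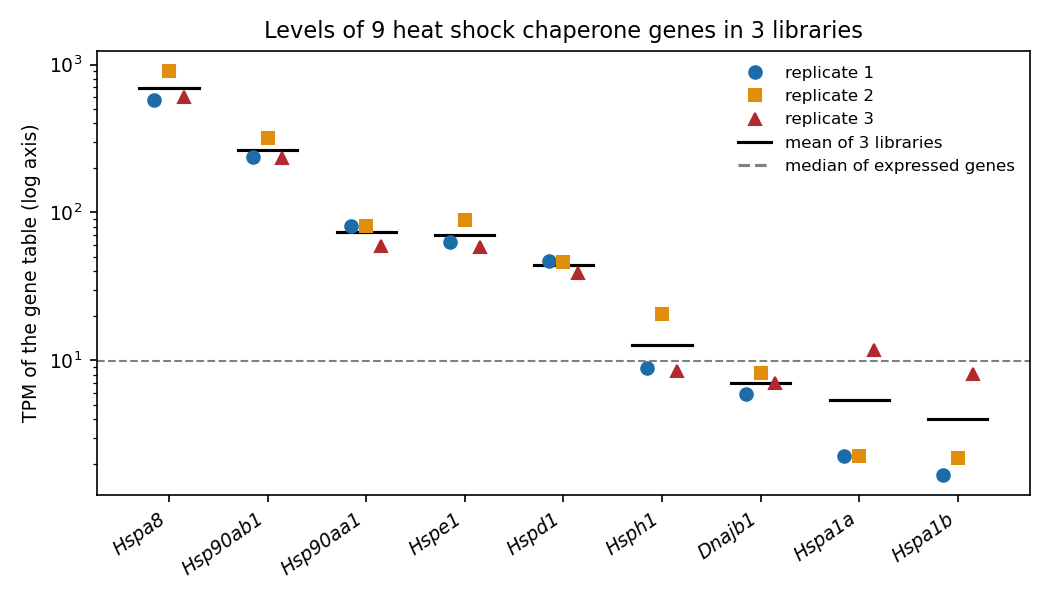
TPM of the gene table (log axis) for 9 genes in order of mean level, with 1 symbol per library, black lines at the mean of 3 libraries and a dashed line at the median of expressed genes. Hspb1 is left out because it had no counts in replicate 2. The points of Hspa8 lie between 576 and 905 TPM, and those of Hspa1a and Hspa1b are split between replicate 3 and the other libraries.

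Hspa8 encodes HSC70, the HSP70 that cells make without stress and that also takes part in clathrin uncoating and chaperone-mediated autophagy. The gene (chr9:40800984-40810087, plus strand) had 576, 905 and 607 TPM in replicates 1, 2 and 3, or 696 ± 181 TPM (SD, n = 3). Of 21938 protein-coding genes, 47 had a higher mean. In protein-coding CPM the libraries were close, at 2190, 2149 and 1998, a coefficient of variation of 4.77%. Replicate 2 is thus highest in TPM and intermediate in protein-coding CPM. Transcripts annotated as noncoding held 17.9% of Hspa8 TPM in replicate 2, mainly Hspa8-209 and Hspa8-203, and 1.01% and 0.26% in replicates 1 and 3. In counts their share in replicate 2 was 4.63%, since these transcripts are short (727 and 598 bases) and TPM divides by length.

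Most Hspa8 signal belonged to 2 coding transcripts. Hspa8-201 held 57.8%, 49.7% and 63.5% of TPM and Hspa8-202 held 41.1%, 32.4% and 36.3%. The coding sequences have 1938 and 1881 bases, and the 57-base difference is the first part of exon 4 of 9 (chr9:40802739-40802795), which Hspa8-202 leaves out. The table made from the reads gave the longer form more, 69.9 ± 14.0% against 19.9 ± 4.80% (SD, n = 3), so the order of the forms was the same and their sizes were not. Within introns of Hspa8 lie the small nucleolar RNA genes Snord14c, Snord14d and Snord14e, and none of them had counts in the gene table. Processed pseudogenes at 95% identity or more over at least 300 bases numbered 5 on the same strand of the match, and their counts came to 0.365%, 0.463% and 0.429% of those of Hspa8. Gm15459 (1.79 ± 0.45 TPM) and Gm8355 (1.42 ± 0.48 TPM) were the highest of them. The lincRNA Gm26825, which lies across Gm15459 on the other strand, had 2.96 ± 1.39 TPM, and use of strand in counting is not given in the sources used here. The table made from the reads gave Gm26825 10.1, 24.5 and 36.5 counts, where the gene table gave 404, 89.8 and 536. It gave the 5 pseudogenes 0.111%, 0.0947% and 0.0812% of Hspa8 counts, so the levels of these loci depend on the table.

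The inducible HSP70 genes lie side by side in the class III region of the major histocompatibility complex, Hspa1a at chr17:34969190-34972156 and Hspa1b at chr17:34956436-34959238, both on the minus strand and each with a single exon. They encode nearly the same protein, the HSP70 that is made in bulk after heat shock. Hspa1a had 2.24, 2.24 and 11.8 TPM in replicates 1, 2 and 3. Hspa1b had 1.69, 2.20 and 8.13 TPM. Both genes were thus low in replicates 1 and 2 and several-fold higher in replicate 3, and that library alone set their large spread. Hspa8 exceeded the pair by log2 ratios of 7.20, 7.67 and 4.93, and held 99.3%, 99.5% and 96.8% of the TPM of the 3 genes together. In bulk RNA, more cells with these transcripts and more of them per cell cannot be told apart.

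In protein-coding CPM, Hspa1a had 11.6 (95% Poisson interval 10.7 to 12.6), 8.38 (7.15 to 9.77) and 52.1 (49.9 to 54.4). Hspa1b had 8.23 (7.43 to 9.07), 7.74 (6.58 to 9.10) and 33.9 (32.1 to 35.7). The intervals of replicate 3 do not meet those of the other libraries, although intervals cover counting error only. The sum rests on 950, 316 and 3485 expected counts, rounded. Against the average of replicates 1 and 2, replicate 3 was 5.17-fold for Hspa1a, 4.20-fold for Hspa1b and 4.76-fold for the sum (log2 2.37, 2.07 and 2.25). Among the 9269 expressed genes, Hspa1a had the highest ratio in that library and Hspa1b the third. The gene between them, 1810049J17Rik, was named after its value was seen and had 2.47, 0.742 and 7.15 protein-coding CPM. Against replicate 1 alone the log2 ratio of the sum in replicate 3 was 2.11, and against replicate 2 alone it was 2.41. Without replicate 3 the remaining libraries differed by 19.8 against 16.1 protein-coding CPM for the sum.

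**Figure D2:**
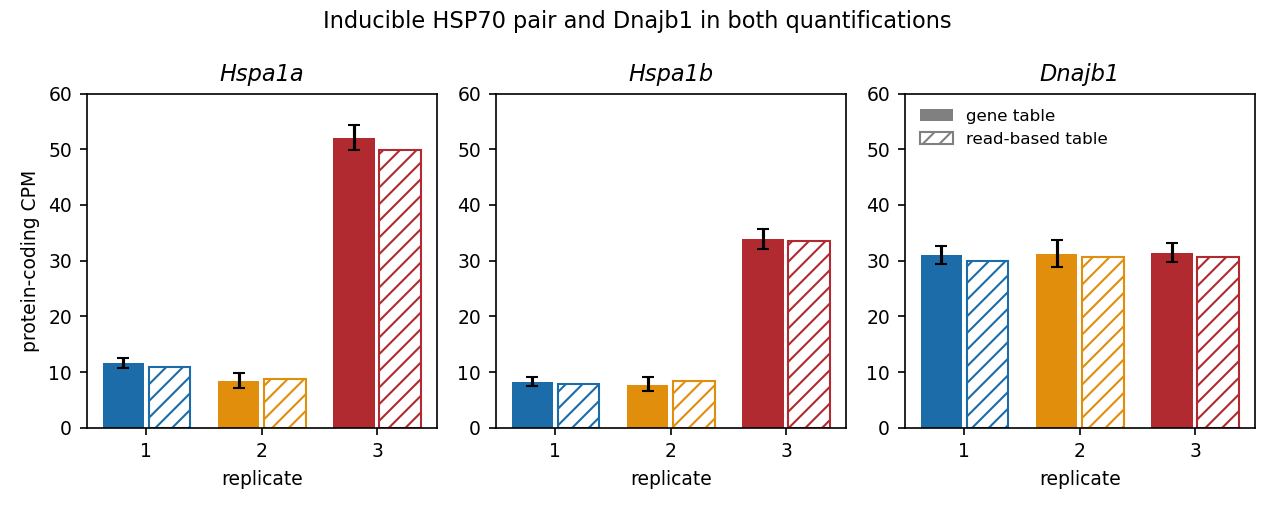
Protein-coding CPM of Hspa1a, Hspa1b and, for comparison, Dnajb1 by replicate. Filled bars show the gene table with 95% Poisson intervals of the counts, and hatched bars show the read-based table. Hspa1a reaches 52.1 and Hspa1b 33.9 in replicate 3, while Dnajb1 stays between 31.0 and 31.4.

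The sum, which does not depend on how reads are divided between the near-identical genes, showed the same pattern. Hspa1a held 57.0%, 50.5% and 59.1% of the TPM of the pair, so in replicate 2 the genes were close to equal. The read-based table gave the sum 18.7, 17.1 and 83.4 protein-coding CPM. The third gene of the locus, Hspa1l, whose product is an HSP70 known from testis, starts 547 bases from Hspa1a on the opposite strand. Hspa1l had 1.70, 2.12 and 1.41 protein-coding CPM. The predicted gene Gm20481, which overlaps Hspa1a on the opposite strand, had no counts.

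The partners of HSP70 did not share the pattern of the pair. Dnajb1 encodes HSP40, the J-domain protein that is heat-inducible with Hspa1a, and lies at chr8:83608193-83612653, plus strand. It had 31.0, 31.2 and 31.4 protein-coding CPM, from 1488, 611 and 1274 counts. Its coefficient of variation was 0.60%, at percentile 0.14 among expressed genes. The Poisson intervals were wider than this spread, at 29.5 to 32.7, 28.8 to 33.8 and 29.7 to 33.2 protein-coding CPM. The coefficient was 0.92% in TPM rescaled to nuclear protein-coding genes. With TMM factors the log2 ratios of replicates 1, 2 and 3 to the mean of the others were -0.13, 0.01 and 0.11. A value this small is below counting error and depends on the scaling. The TPM of Dnajb1 was 5.93, 8.24 and 7.02. The ratio of replicate 3 to the mean of the others was log2 0.01, and it stayed between -0.01 and 0.15 under the scalings tried. Dnajb1-201 held all of its TPM, and the nearest gene start is that of Tecr, an enzyme of fatty acid elongation, at 56.9 ± 15.8 TPM (SD, n = 3).

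Hsph1 encodes HSP105, the HSP110 protein that exchanges nucleotide on HSP70 and keeps aggregated proteins soluble. The gene (chr5:149614287-149636376, minus strand) had 8.91, 20.7 and 8.51 TPM, which puts replicate 2 far above the others. In protein-coding CPM it had 50.3, 55.5 and 36.1, so replicate 2 stayed highest by a small margin and replicate 3 was lowest (log2 -0.55). Part of the difference between the scales goes with the smaller share of protein-coding genes in TPM of replicate 1, since TPM rescaled to nuclear protein-coding genes was 30.1, 51.3 and 24.5. A retained-intron transcript of 751 bases, Hsph1-208, held 17.5%, 53.0% and 29.4% of Hsph1 TPM but 3.11%, 14.1% and 6.09% of its counts. When only protein-coding transcripts were summed, an alternative chosen after seeing the data, Hsph1 had 7.25, 9.75 and 5.96 TPM. These values are not rescaled for the share of protein-coding genes in TPM, so they do not rank the libraries.

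The main coding form of Hsph1 was Hsph1-211, with 73.0%, 47.0% and 61.5% of TPM. It includes exon 12 of 18 (chr5:149623465-149623596, 132 bases), and the form without that exon, Hsph1-201, is the shorter HSP105 described as heat-inducible and nuclear. Among the long coding transcripts (over 3000 bases), the form without the exon held 9.52%, 0% and 12.2% of TPM in the aligned transcript table. The read-based table gave 22.2%, 23.5% and 28.6%. The tables thus differ most in replicate 2, and the inclusion of exon 12 cannot be fixed from these values beyond being the majority form.

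**Figure D3:**
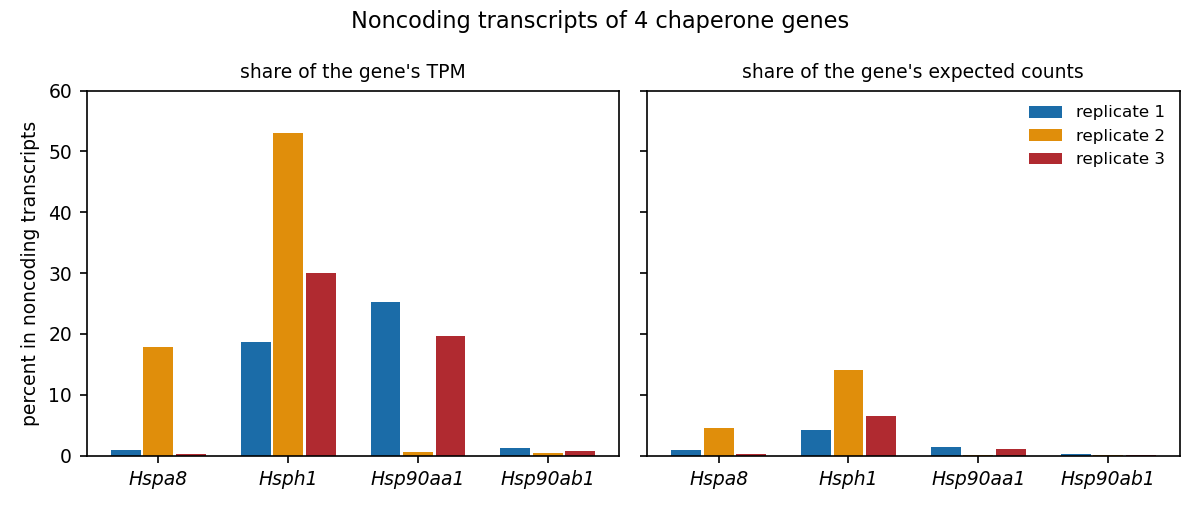
Percent of each gene's TPM (left) and of its expected counts (right) in transcripts not annotated as protein-coding, for Hspa8, Hsph1, Hsp90aa1 and Hsp90ab1 in 3 libraries. The share is larger in TPM than in counts for Hsph1 (53.0% against 14.1% in replicate 2) and for Hsp90aa1 (25.3% against 1.42% in replicate 1).

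The HSP90 transcripts were mostly of the constitutive form. Hsp90ab1, which encodes HSP90 beta (chr17:45567775-45573271, minus strand), had 238, 317 and 233 TPM, or 263 ± 47.2 TPM. Hsp90aa1, which encodes the more inducible HSP90 alpha (chr12:110690605-110702728, minus strand), had 81.1, 80.4 and 59.3 TPM, or 73.6 ± 12.4 TPM (SD, n = 3). The beta form was 3.57-fold higher per length (log2 1.84 ± 0.24), in 3 of 3 libraries, and held 74.6%, 79.8% and 79.7% of the TPM of both. In counts the log2 ratio was 1.75 ± 0.17, and the transcripts are 76.1% identical over their aligned bases.

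Between libraries the HSP90 genes were lowest in replicate 3. Hsp90aa1 had 334, 305 and 224 protein-coding CPM and Hsp90ab1 had 1021, 991 and 859, giving log2 ratios of -0.51 and -0.23 for replicate 3. Hsp90aa1 thus lay on the opposite side from Hspa1a and Hspa1b in that library. A retained-intron transcript of 325 bases, Hsp90aa1-204, held 24.5%, 0% and 19.7% of Hsp90aa1 TPM and 1.25%, 0% and 1.07% of its counts. Summed over protein-coding transcripts, Hsp90aa1 had 60.6, 80.0 and 47.6 TPM. These values are not rescaled for the share of protein-coding genes in TPM either, so they do not rank the libraries. In counts, all noncoding transcripts of Hsp90aa1 held 1.42%, 0.152% and 1.07%. The full-length transcripts Hsp90aa1-202 and Hsp90aa1-201 have coding sequences of equal length (2199 bases), and their shares of TPM were 42.9 ± 5.94% and 41.9 ± 17.9% (SD, n = 3). The read-based table gave them 13.5 ± 3.67% and 63.5 ± 2.04%, so which of them leads depends on the table. Hsp90ab1-201 held 98.5% or more of Hsp90ab1 TPM in every library. The 3 processed pseudogenes of Hsp90aa1 had 0.230% to 0.700% of its counts in the gene table and 0.133% to 0.289% in the read-based table.

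The mitochondrial chaperonin genes share a promoter region and overlap by 112 bases at their starts. Hspd1, for HSP60, lies at chr1:55077835-55088243 on the minus strand, and Hspe1, for its lid HSP10, at chr1:55088132-55091307 on the plus strand. Hspd1 had 47.1, 46.3 and 39.2 TPM, or 44.2 ± 4.36 TPM, and Hspe1 had 63.3, 88.9 and 58.4 TPM, or 70.2 ± 16.3 TPM (SD, n = 3). Hspe1 was higher per length in 3 of 3 libraries, by 1.57-fold (log2 0.65 ± 0.27). In counts the direction turned, with a log2 ratio of -1.19 ± 0.22, since the main Hspe1 transcript has 774 bases and that of Hspd1 2423.

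Between libraries the genes of this shared region had different highest values. Hspd1 had 177, 130 and 121 protein-coding CPM and was highest in replicate 1 (log2 0.49). Hspe1 had 65.9, 66.0 and 53.6, equal in replicates 1 and 2 and lower in replicate 3 (log2 -0.30). Hspd1-201 held 86.4%, 91.3% and 81.9% of Hspd1 TPM, with most of the rest in the shorter coding transcript Hspd1-202, and Hspe1-201 held 99.9% of Hspe1 TPM. Hspa9, the mitochondrial HSP70 that hands proteins on to HSP60, had 402, 288 and 312 protein-coding CPM and was, like Hspd1, highest in replicate 1. Nuclear noncoding RNA was highest in that library too, and its part in this was not tested.

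Hspb1, the gene of HSP25 (the mouse form of HSP27, an ATP-independent holdase), was close to absent in these macrophages. The gene (chr5:135887919-135889563, plus strand) had 6, 0 and 2 counts, or 0.10, 0 and 0.04 TPM. A count of 0 in replicate 2 allows up to 3 counts, or 0.141 CPM of all counts. With so few counts its ratios between libraries (log2 0.85, -0.91 and -0.12) rest on single reads.

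Across libraries, the inducible pair passed 1.5-fold and the other well-counted heat shock genes mostly did not. Against the average of replicates 1 and 2, replicate 3 was at least 1.5-fold higher for 2 of the 10 genes, Hspa1a and Hspa1b, where 2.33% of expressed genes were, and lower for 0, where 2.99% were. The same pair was at least 1.5-fold lower in replicate 1 (2 of 10, background 1.29%), where Hspb1 was higher from its 6 counts (1 of 10, background 3.62%). In replicate 2 the pair and Hspb1 were lower (3 of 10, background 4.97%) and 0 were higher (0.874%). These calls share libraries, so those of replicates 1 and 2 are largely the high value of replicate 3 seen again. Between the highest and the lowest library 4 of the 10 genes, Hspb1 with its few counts among them, differed by at least 1.5-fold. Of the 9 expressed heat shock genes 3 did, where 17.2% of expressed genes did. Without replicate 3 only Hspb1 did. For the 7 genes other than the pair and Hspb1, the ratio of the highest to the lowest library ran from 1.01 (Dnajb1) to 1.54 (Hsph1), and 6 of these 7 were lowest in replicate 3, as were 46.7% of expressed genes. With TMM factors or DESeq2 size factors 5 of the 7 were lowest there, against 32.0% and 31.7% of expressed genes. The median of expressed genes in replicate 3 was log2 -0.09 by the same measure, and 0.01 with TMM factors.

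**Figure D4:**
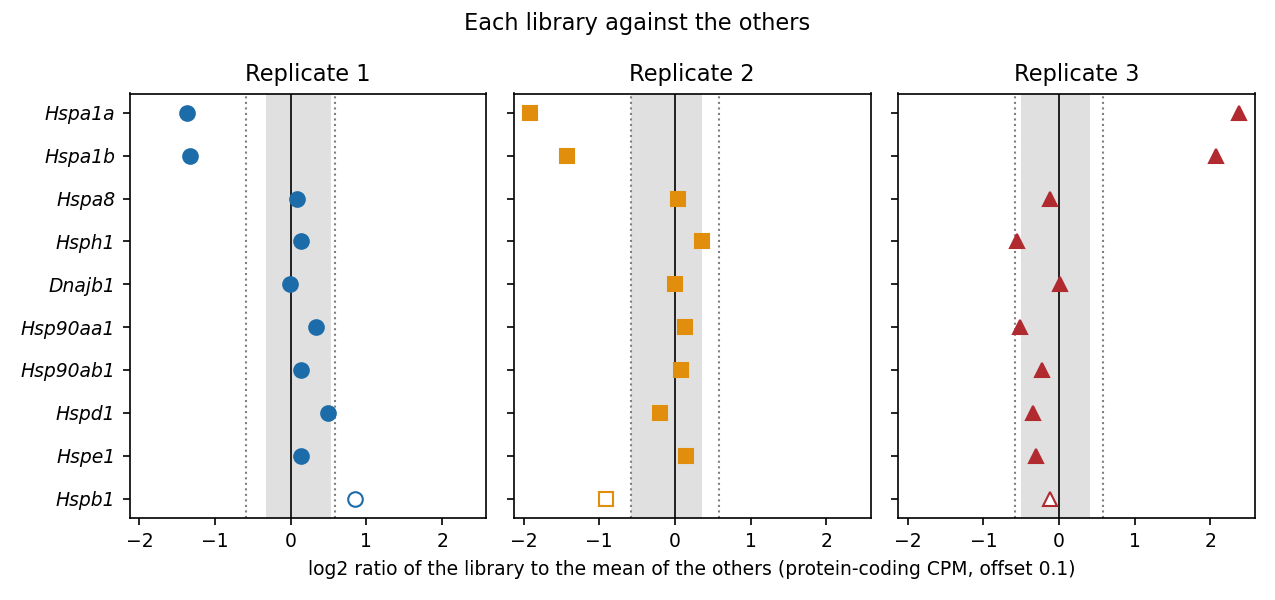
Protein-coding CPM of each gene in 1 library relative to the average of the remaining libraries, as log2 with an offset of 0.1. The grey band spans the 5th to 95th percentile of expressed genes, dotted lines mark 1.5-fold, and open symbols mark Hspb1 with its few counts. In replicate 3 Hspa1a (2.37) and Hspa1b (2.07) lie far right of the band, while Hsph1 (-0.55) and Hsp90aa1 (-0.51) lie at its left edge.

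Nuclear RNA and markers of other cell types also differed between libraries, and their part in the values of the pair was not tested. Retained-intron transcripts took 2.65%, 1.77% and 1.49% of the counts of expressed genes in replicates 1, 2 and 3. For Hspa8 they took 0.851%, 0.163% and 0.211%, and for Hsp90ab1 0.263%, 0.096% and 0.136%, highest in replicate 1 as well. Hsph1 differed, with 4.16%, 14.1% and 6.50%. Hspa1a and Hspa1b have no introns, so this measure does not apply to them. Of the 6 lists of other cell types, those of dendritic cells and of T and NK cells had their highest sums in replicate 3. These sums were 5.36, 5.72 and 6.19 and 0.292, 0.102 and 0.444 protein-coding CPM in replicates 1, 2 and 3. Of the 8 T and NK cell genes, 0 reached 1 TPM in every library. Most of their sum in replicate 3 was Lck, with 6, 0 and 13 counts. The most abundant dendritic cell genes, Ccr7 (3.48, 4.04 and 3.90) and Siglech (0.292, 0.409 and 0.321), were highest in replicate 2. Other genes of that list were highest in replicate 1 or 3.

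Most genes of the wider chaperone network were expressed, and few passed 1.5-fold between libraries. Of 112 genes in 9 lists by role, 95 had at least 1 TPM in every library. In replicate 3, 0 of the 95 were called higher (2.33% of expressed genes) and 2 lower (2.99%), the peptidyl-prolyl isomerase gene Ppid and the endoplasmic reticulum HSP90 gene Hsp90b1, and their median log2 ratio was -0.11. In replicate 1, 2 were called higher (Ppid and Cdc37l1, named after their values were seen; 3.62% of expressed genes) and 0 lower (1.29%). In replicate 2, 0 were called higher (0.874%) and 0 lower (4.97%). Whole lists still differed below this fold, where medians of expressed genes were log2 0.09, -0.02 and -0.09 in replicates 1, 2 and 3. The mitochondrial list had medians of log2 0.27, -0.22 and -0.07. In replicate 1, 13 of its 14 genes were above 0, as were 6236 of 9269 expressed genes. The endoplasmic reticulum list had 0.17, 0.05 and -0.25.

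Heat shock factors were present at low to moderate levels. Hsf1, the main stress-responsive factor, had 5.62 ± 0.60 TPM and Hsf2 3.94 ± 0.42 TPM, while Hsbp1, whose product binds and restrains HSF1, had 75.0 ± 17.8 TPM (SD, n = 3). Hsf1 had 20.1, 14.6 and 14.7 protein-coding CPM in replicates 1, 2 and 3. These are transcript levels, and the activity of HSF1 was not tested. Of the 7 genes in this list, 3 passed 1 TPM in every library. Other genes of the small heat shock protein list were mostly low as well, with 2 of 9 at that level and 4 without any count. Those at that level were Hspb11 (5.37 ± 0.48 TPM), listed for its symbol, and Hspb6 (1.18 ± 0.26 TPM). Whether Hspb11 belongs to this family by sequence was not tested. Cryab, for alpha B-crystallin, had 0.63 ± 0.42 TPM.

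Among other HSP70 and HSP110 genes, 5 of 8 were expressed, led by Hspa4 (46.6 ± 7.98 TPM), Hspa14 (10.3 ± 0.50 TPM) and Hspa13 (6.89 ± 1.42 TPM). Hspa4, an HSP110 relative of Hsph1, was thus more abundant than Hsph1 at 12.7 ± 6.94 TPM (SD, n = 3). Of 16 J-domain genes, 15 were expressed, and Dnaja1 (72.0 ± 5.71 TPM), Dnajb6 (64.2 ± 1.68 TPM) and Dnajc7 (39.6 ± 2.59 TPM) all exceeded Dnajb1 at 7.06 ± 1.16 TPM. The most abundant HSP70 cochaperone genes of the exchange factor list (8 of 9 expressed) were Bag1, Bag6 and St13, at 69.2 ± 8.94, 48.7 ± 6.67 and 46.7 ± 8.37 TPM. All 17 HSP90 cochaperone genes were expressed, led by Ahsa1 (76.5 ± 15.9 TPM), Fkbp8 (72.9 ± 20.0 TPM) and Cdc37 (48.6 ± 4.73 TPM). These leading genes were below Hsp90ab1 in every library, and Cdc37 was also below Hsp90aa1. Ahsa1 (94.3 and 71.1 TPM) and Fkbp8 (95.4 and 66.1 TPM) exceeded Hsp90aa1 (80.4 and 59.3 TPM) in replicates 2 and 3. In replicate 1 both were below Hsp90aa1.

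In other compartments, the endoplasmic reticulum chaperones had the highest median of the lists, 42.9 ± 8.37 TPM (SD, n = 3) with 17 of 18 expressed, led by Calr (277 ± 65.0 TPM), Hspa5 (202 ± 16.5 TPM) and Hsp90b1 (155 ± 50.5 TPM). Hspa5, the HSP70 of that compartment, thus stood below Hspa8 in every library. The cytosolic chaperonin TRiC and prefoldin had 14 of 14 genes expressed and a median of 35.1 ± 3.91 TPM, led by Pfdn5, Cct2 and Cct6a. All 14 listed mitochondrial chaperone and protease genes were expressed with a median of 10.3 ± 0.52 TPM, led by Hspa9 (73.7 ± 4.35 TPM), Yme1l1 (22.7 ± 3.52 TPM) and Htra2 (19.0 ± 1.95 TPM). By mean TPM, Hspd1 (44.2) and Hspe1 (70.2) stood between Hspa9 and Yme1l1, although in replicate 2 Hspe1 (88.9) exceeded Hspa9 (75.3).

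**Figure D5:**
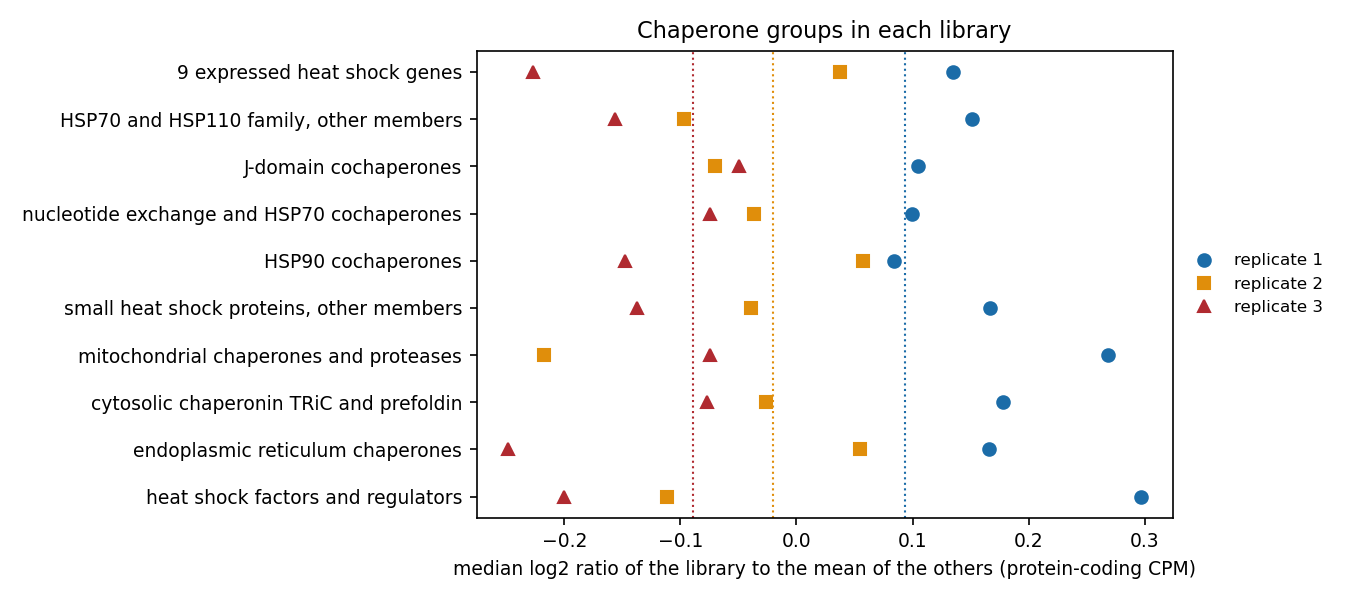
Median log2 ratio of a library to the average of the remaining libraries (protein-coding CPM) for the 9 expressed heat shock genes and for the expressed genes of 9 lists by role. Dotted lines mark the median of all expressed genes in the same library (0.09, -0.02 and -0.09). Replicate 1 lies furthest right in every row, and replicate 3 lies furthest left except for J-domain and mitochondrial genes.

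The gene tables and the tables made from the reads gave similar relative levels for these genes. After both were rescaled to nuclear protein-coding genes, 0 of the 10 genes differed by 1.5-fold or more in all 3 libraries in either direction, where 0.313% of expressed genes were higher and 0.485% lower in the gene table. The mean log2 ratio of the tables lay between -0.33 (Hspb1) and 0.10 (Hspa8). The largest value in 1 library outside Hspb1 was -0.44, for Hsp90aa1 in replicate 2, the library in which the aligned transcript table listed Hsp90aa1-204 at 0.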

How the data were processed

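Total RNA of the cytosolic fraction was measured in 3 libraries of 1 group. Each library has a deposited gene table and transcript table that hold expected counts, TPM and FPKM, per the file headers, and a second deposited transcript table with estimated counts and TPM made from the reads. The gene table's credibility bounds of TPM are further deposited columns and were not printed. Expected and estimated counts as deposited are not normalized, while TPM and FPKM were scaled within each library by the authors. Build mm10 and GENCODE M21 are named in the deposited description files. The aligner, the counting programs and the use of strand were not given in the sources used here. Where reads are split among similar transcripts, copies, overlapping genes and antisense genes have uncertain values.

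Of 81881 rows per gene table, 55450 matched the annotation of reference chromosomes. Protein-coding CPM is an expected count scaled so that nuclear protein-coding genes sum to 1000000. Library ratios used an offset of 0.1 and a limit of 1.5-fold. With 1 group there was no contrast, so no gene was tested. FPKM, TMM factors (edgeR 4.0.16), size factors (DESeq2 1.42.0), other pseudocounts and leaving out a replicate were alternatives. The calculation of library ratios was checked on simulated counts with known changes in 1 library. Python 3.11.15, R 4.3.3 and blastn 2.17.0 were used. Poisson intervals and the limit of 3 counts cover counting error only. For a gene without counts that limit is 0.054, 0.141 and 0.066 CPM by replicate, and replicate 2 is the least precise. The genes and lists were chosen with earlier results of these data known. Named were the 10 genes, the 3 most abundant genes of each role list, the 2 most abundant of marker lists where those lists are described, and copies or neighbours with at least 1 TPM. Hspa1l, Gm20481 and the Snord14 genes are below that limit and were named after their values were seen.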

Additional observations from a re-analysis of the deposited data

How the results depend on the processing

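No paired analysis was possible because the study has 1 group. The count of genes with at least 1 TPM in every library stayed within 1.5 times the reported 9 (7 at a limit of 5 TPM). The higher value of Hspa1a and Hspa1b in replicate 3 kept its direction under 8 alternatives of scaling or quantification, with log2 ratios from 2.01 to 2.39, and leaving out a replicate gave 2.11 to 2.41. The median over the 10 genes of mean TPM, 28.5, became 13.8 in the read-based table, 40.6 in FPKM, 82.0 in rescaled TPM and 44.2 with the pair summed, where scale or gene number differ by construction, and 25.9 to 30.8 without 1 replicate. The median log2 ratio of the 10 genes in replicate 1, 0.14, became -0.27 with a TPM pseudocount of 1 and -0.29 with 0.1, and that of replicate 2, 0.02, became 0.25 and 0.27. The median of all expressed genes moved likewise, to -0.26 in replicate 1 and 0.33 in replicate 2 with 0.1. In replicate 3 the median over the 10 genes was negative under every alternative. The count of genes at 1.5-fold between libraries, 4, was 1 to 3 when a replicate was left out, 3 with TMM factors and 6 in TPM. The ratio of Hspe1 to Hspd1, log2 0.65 in TPM, reversed to -1.19 in counts not divided by length. Tables compared in TPM as deposited differed by 1.5-fold for 7 genes, whereas rescaled values gave 0. Protein-coding genes held 29.6%, 40.4% and 34.8% of TPM in the gene tables of replicates 1, 2 and 3. In the read-based tables they held 20.5%, 21.4% and 7.95%. Whether this scale accounts for all 7 genes was not tested. Of 120 alternatives for single genes, 37 moved the mean TPM by 1 SD or more, or the coefficient of variation by 50% or more of its value. Depth limits Hspb1, whose highest value is 6 counts in the gene table and 12.6 in the read-based table.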
